A study of Rattus norvegicus with 8 samples.

Results

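The 10 genes described here carry acid and base transport in intercalated cells of the kidney: Foxi1, Atp6v1b1, Atp6v0a4, Atp6v1g3, Slc4a1, Slc26a4, Slc26a7, Slc4a9, Rhbg and Rhcg. They were chosen by name, and each was found through 1 probe set annotated to that symbol alone, so 10 probe sets of 29214 and 10 genes of 17245 were followed. They were measured in whole kidneys from 4 rats of the HSRA-S group, which were born with a solitary kidney, and from 4 rats of the HSRA-C group, which had a kidney pair and served as the control. Both groups belong to HSRA, a model of unilateral renal agenesis bred from a heterogeneous stock, and all rats were 4 weeks old. No agent was given to either group per the labels, and the sources used here give no sex, litter or body side of the kidney. A whole kidney mixes all its cell types, so a gene's value is an average over cortex and medulla. Levels are log2 of the deposited intensity, differences are HSRA-S minus HSRA-C on the log2 scale, and intervals are 95% intervals of the fit.

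Intercalated cells lie among the principal cells of the connecting tubule and collecting duct. Type A cells secrete acid: a proton pump at the luminal side moves protons into the urine, and the anion exchanger Slc4a1 returns bicarbonate to the blood. Type B cells are arranged the other way round and secrete bicarbonate through Slc26a4, known as pendrin. The transcription factor Foxi1 is needed for intercalated cells to form in mice, and mutations of ATP6V1B1, ATP6V0A4, SLC4A1 or FOXI1 in people cause distal renal tubular acidosis, in which the urine cannot be acidified.

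None of the 10 genes passed the test between solitary and control kidneys. The clearest were Foxi1 and Slc4a1, lower in HSRA-S by 1.21-fold and 1.23-fold. Rhbg, Rhcg, Slc4a9 and Atp6v1b1 were lower by 1.08-fold to 1.13-fold, and Atp6v0a4, Atp6v1g3, Slc26a4 and Slc26a7 differed by 1.04-fold at most. In limma's fit of all 13796 genes tested, 0 of the 10 were past an adjusted p of 0.05, where 0% of all genes were. At an unadjusted p under 0.05 there were 2 lower and 0 higher members, where 12.1% of all genes passed in either direction, 4.69% lower and 7.36% higher. That count of lower members was 4 without HSRA-S replicate 1, 4 with arrays centred on their median and 4 with quantile normalization. Of all genes 4.61%, 5.7% and 5.38% were lower at that p in these 3 fits. It was 1 without HSRA-S replicate 2 or 4, without HSRA-C replicate 2, 3 or 4, and with the inner medulla covariate. There 2.52% to 5.3% of all genes were lower at that p. The count was 0 with the principal cell covariate, where 8.14% of all genes passed, 2.72% lower. It was also 0 without both HSRA-C replicates 3 and 4, whose inner medulla markers were the highest on average, and 4.85% of all genes passed there, 2.17% lower and 2.68% higher. In none of the 10 did the groups separate completely, where 6.29% of all genes did. Of the 10 members 8 had a difference below 0, against 44.5% of all genes. Of these 8, Atp6v0a4 and Slc26a7 took the opposite sign when single kidneys were left out, as did the other 2 members, Atp6v1g3 and Slc26a4. The median difference was -0.12 over the members and 0.015 over all tested genes. In whole tissue, fewer intercalated cells and less RNA per cell cannot be told apart.

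The start regions of these genes were searched because Foxi1 is known to act on genes of the proton pump in mice. Those of 3 genes are shown: Foxi1 itself and the only 2 members whose window held a match. Promoter windows of 300 bases, 250 before and 50 after the annotated start, were found for 8 of the 10 members in RefSeq sequences of build GRCr8, and those of Slc4a1 and Slc26a7 are named only. They were searched on both strands for TGTTTA, the core letters that forkhead proteins such as Foxi1 bind, and capitals mark each match. Foxi1 lies at chr10:19314356-19314655 on the minus strand, Atp6v1b1 at chr4:117781194-117781493 on the plus strand and Atp6v1g3 at chr13:52362082-52362381 on the plus strand, and each is written 5′ to 3′ along its gene.
Foxi1: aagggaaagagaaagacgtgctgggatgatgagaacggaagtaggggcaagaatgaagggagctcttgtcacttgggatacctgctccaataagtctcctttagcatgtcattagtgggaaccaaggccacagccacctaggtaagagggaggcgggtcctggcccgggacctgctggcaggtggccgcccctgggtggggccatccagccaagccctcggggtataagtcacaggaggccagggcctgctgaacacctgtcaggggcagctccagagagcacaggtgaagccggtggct
Atp6v1b1: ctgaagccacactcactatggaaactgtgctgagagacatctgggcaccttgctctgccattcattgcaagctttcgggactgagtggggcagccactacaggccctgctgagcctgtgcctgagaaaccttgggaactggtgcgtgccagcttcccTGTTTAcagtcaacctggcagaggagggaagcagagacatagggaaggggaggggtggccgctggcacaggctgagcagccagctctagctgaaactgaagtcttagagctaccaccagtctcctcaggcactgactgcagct
Atp6v1g3: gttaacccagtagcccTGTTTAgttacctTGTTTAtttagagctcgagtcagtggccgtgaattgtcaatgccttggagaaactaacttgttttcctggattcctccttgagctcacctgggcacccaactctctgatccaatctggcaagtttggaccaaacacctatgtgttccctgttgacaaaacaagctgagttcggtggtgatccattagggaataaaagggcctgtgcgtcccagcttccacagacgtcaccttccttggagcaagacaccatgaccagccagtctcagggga

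The core was present in 2 of the 8 windows, against 13.7% of 33469 windows of the same length in the whole table. It began at position -93 from the start of Atp6v1b1 and at -234 and -221 from that of Atp6v1g3. The Foxi1 window held none, nor did those of Atp6v0a4, Slc26a4, Slc4a9, Rhbg and Rhcg, which are not shown. The longer form TGTTTAC, which contains the core, was present in the Atp6v1b1 window alone among the 8, against 3.78% of all windows. These matches describe letters in the windows shown, and binding was not measured.

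The arrays had median intensities of 30.8 to 32.3 and correlated at 0.983 to 0.996 over the tested genes. Markers of proximal tubule (Lrp2, megalin), thick limb (Umod, uromodulin) and principal cells (Aqp2, the vasopressin-regulated water channel) were bright, with mean log2 levels of 11.2, 11.6 and 9.89 in HSRA-S and 11.1, 11.6 and 10.3 in HSRA-C. The mean level of inner medulla markers was low in HSRA-S replicate 4 and HSRA-C replicate 1 and highest in HSRA-C replicates 3 and 4. Slc14a2, which carries urea in the inner medulla, was at 6.85, 7.04, 7.22 and 4.44 in HSRA-S replicates 1 to 4 and at 5.99, 6.44, 8.86 and 8.997 in HSRA-C replicates 1 to 4. The 4 inner medulla markers tested were all lower in HSRA-S, at a median of -0.53, and all higher without HSRA-C replicates 3 and 4, at a median of 0.13. Aqp4, a water channel of principal cells there, was at -0.58 (SE 0.46). Many of the results are therefore also given without those 2 control arrays.

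Foxi1 stands at the head of the intercalated cell programme. Its log2 levels were 8.12, 7.81, 7.996 and 7.84 in HSRA-S replicates 1 to 4, and 8.11, 8.22, 8.32 and 8.24 in HSRA-C replicates 1 to 4. Of the HSRA-S kidneys 3 lay below every control, and replicate 1 exceeded the lowest control by a narrow margin. The mean was 7.94 ± 0.14 over HSRA-S kidneys, against 8.22 ± 0.088 over HSRA-C kidneys (SD, n = 4 per group). The difference was -0.28, with an interval from -0.46 to -0.095, an unadjusted p of 0.00693 and an adjusted p of 0.331 in limma. Without HSRA-C replicates 3 and 4 it was -0.22, and it was -0.24 with the inner medulla markers as a covariate. With the mean of the principal cell markers as a covariate it was -0.18, with an adjusted p of 0.615.

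**Figure D1:**
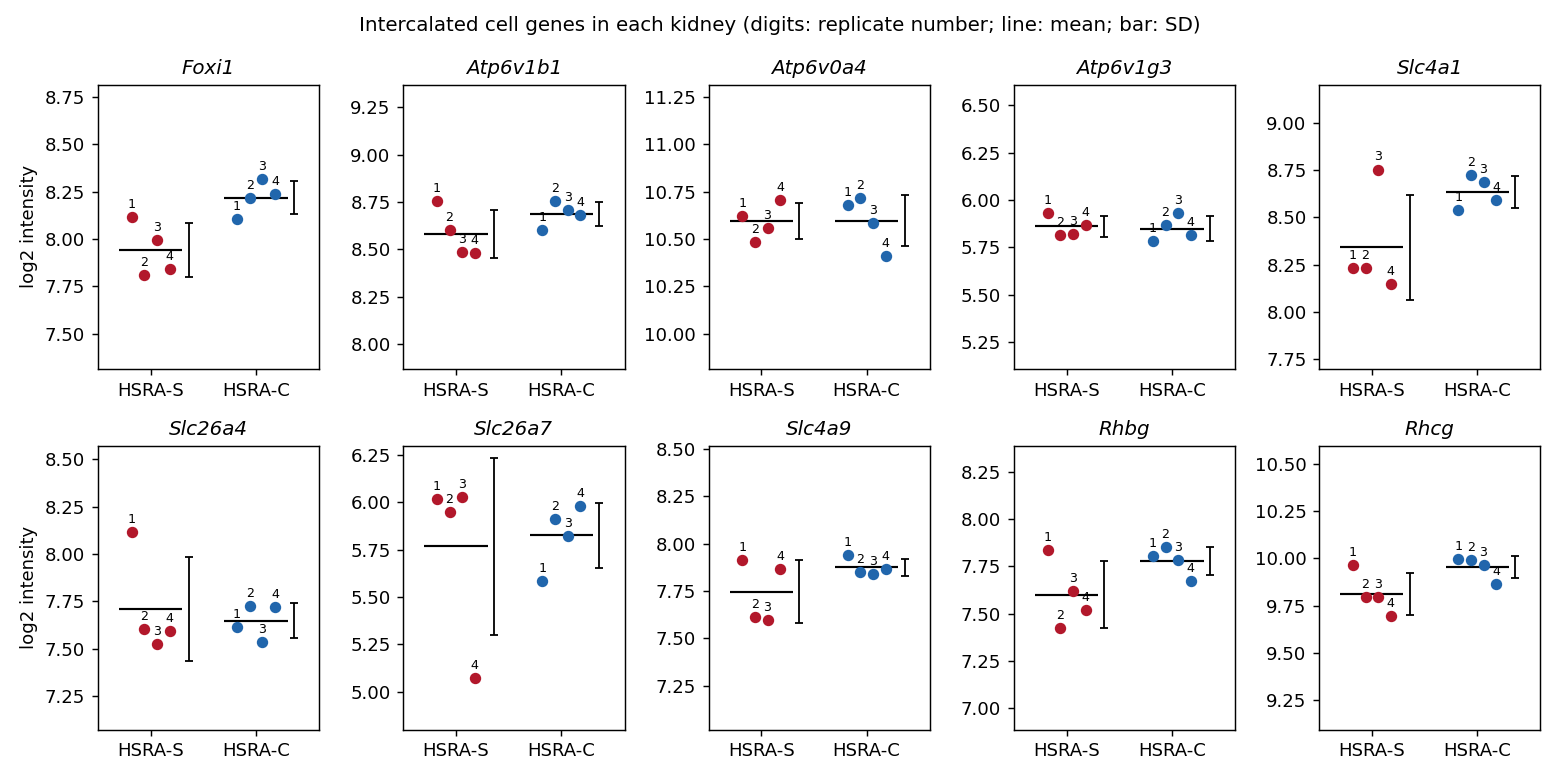
Log2 intensity of the 10 genes in the 4 HSRA-S kidneys (red) and the 4 HSRA-C kidneys (blue); each point is 1 array with its replicate number, lines are group means and bars the SD, and every panel spans the same log2 range. Foxi1, Slc4a1, Rhbg, Rhcg and Atp6v1b1 each had 3 HSRA-S kidneys below the lowest control, and single HSRA-S kidneys stand apart for Slc4a1 (replicate 3), Slc26a4 (replicate 1) and Slc26a7 (replicate 4).

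Slc4a1 encodes the chloride-bicarbonate exchanger of the basolateral membrane of type A cells, and the same gene is also the main anion exchanger of red cells. Its log2 levels were 8.23, 8.23, 8.75 and 8.15 in HSRA-S replicates 1 to 4, and 8.54, 8.72, 8.69 and 8.59 in HSRA-C replicates 1 to 4. HSRA-S replicate 3 was the highest of all 8 kidneys, while the other 3 HSRA-S kidneys lay below every control. The difference was -0.29, from -0.57 to -0.018, with an unadjusted p of 0.0390 and an adjusted p of 0.391 in limma. Without HSRA-S replicate 3 it was -0.43, with an adjusted p of 0.141, and without HSRA-C replicates 3 and 4 it was -0.29.

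The single Slc4a1 probe set does not name the kidney or the red cell form of the transcript, so red cell genes were set beside it. All 9 tested red cell genes had differences above 0, from 0.00071 to 0.40 with a median of 0.14, and 0 passed at an unadjusted p under 0.05. With HSRA-C replicates 3 and 4 left out, 6 of the 9 were higher, at a median of 0.055. Alas2, the first enzyme of heme synthesis in red cells, was at 7.43, 7.49, 7.21 and 6.87 in HSRA-S replicates 1 to 4 and at 7.71, 6.68, 6.85 and 6.31 in HSRA-C replicates 1 to 4. With the red cell genes as a covariate the Slc4a1 difference was -0.27, with an unadjusted p of 0.0866 in limma.

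Slc26a7, the other type A member, is a chloride-bicarbonate exchanger of the basolateral membrane in the outer medulla. Its log2 levels were 6.02, 5.95, 6.03 and 5.07 in HSRA-S replicates 1 to 4, and 5.58, 5.91, 5.82 and 5.98 in HSRA-C replicates 1 to 4. HSRA-S replicate 4 lay far below the other 7 kidneys, and HSRA-C replicate 1 was the next lowest. The same 2 kidneys had the lowest mean level of the inner medulla markers. The difference was -0.058, from -0.50 to 0.39, and it took the opposite sign, 0.17, without HSRA-S replicate 4. It was 0.11 with the inner medulla markers as a covariate and 0.018 without HSRA-C replicates 3 and 4.

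Type B cells were followed through Slc26a4 and Slc4a9. Slc26a4, the luminal exchanger pendrin, was at 8.12, 7.60, 7.53 and 7.60 in HSRA-S replicates 1 to 4, and at 7.61, 7.72, 7.53 and 7.72 in HSRA-C replicates 1 to 4. HSRA-S replicate 1 was higher than all other kidneys, which lay between 7.53 and 7.72. The difference was 0.063, from -0.21 to 0.34, and it was -0.073 without HSRA-S replicate 1 and 0.15 with the principal cell covariate.

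Slc4a9, an anion exchanger of the basolateral membrane of type B cells in rodents, was at 7.91, 7.61, 7.59 and 7.87 in HSRA-S replicates 1 to 4. It was at 7.94, 7.85, 7.84 and 7.86 in HSRA-C replicates 1 to 4. The controls were close together, and HSRA-S replicates 2 and 3 lay below them while replicates 1 and 4 lay among them. The difference was -0.13, from -0.32 to 0.060, with an adjusted p of 0.568 in limma. It was -0.082 without HSRA-S replicate 2 and -0.077 without HSRA-S replicate 3.

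Set against each other, type A and type B members did not part the groups. Each gene was taken relative to its own mean over the 8 arrays, and the type B mean (Slc26a4, Slc4a9) was subtracted from the type A mean (Slc4a1, Slc26a7). The result was -0.29, 0.088, 0.43 and -0.52 in HSRA-S replicates 1 to 4, and -0.11, 0.13, 0.17 and 0.095 in HSRA-C replicates 1 to 4. The HSRA-S kidneys ran from well below to well above the controls. It averaged -0.072 ± 0.42 over HSRA-S kidneys, against 0.072 ± 0.13 over HSRA-C kidneys (SD, n = 4 per group). No p is given for this index, because its genes were chosen with results of these data known.

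**Figure D2:**
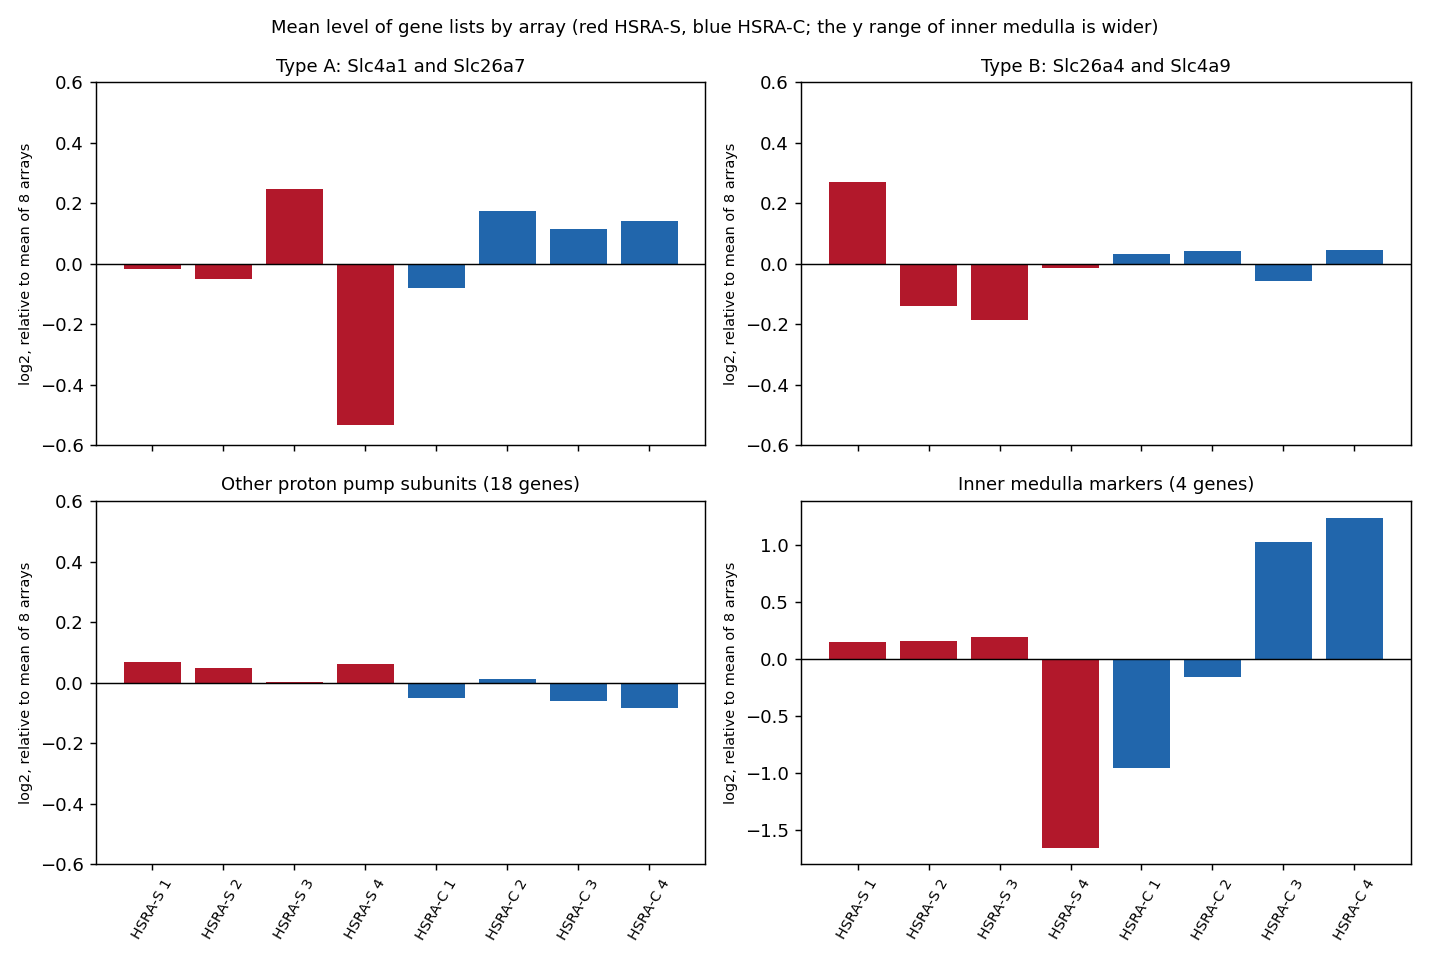
Mean log2 level of 4 gene lists in each array, each gene relative to its mean over the 8 arrays; red bars are HSRA-S and blue bars HSRA-C, and the inner medulla panel has a wider scale. Type A members were lowest in HSRA-S replicate 4 (-0.53) and highest in HSRA-S replicate 3 (0.25), type B members were highest in HSRA-S replicate 1 (0.27), and inner medulla markers ran from -1.66 in HSRA-S replicate 4 to 1.24 in HSRA-C replicate 4.

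Other markers of the 2 cell types were counted from lists. Of 5 type A markers 4 were lower in HSRA-S, against 44.5% of all genes, at a median difference of -0.22. At an unadjusted p under 0.05, 3 were lower and 0 higher, where 4.69% of all genes were lower. At an adjusted p 0 passed. Aqp6, an anion-permeable aquaporin of type A cells, was at 9.47, 9.43, 9.75 and 9.51 in HSRA-S replicates 1 to 4, and at 9.78, 10.01, 10.001 and 10.04 in HSRA-C replicates 1 to 4. All HSRA-S kidneys lay below all controls for Aqp6, with a difference of -0.42 (SE 0.088, adjusted p = 0.331). Kit, the receptor for stem cell factor and a surface marker of mouse intercalated cells, was separated in the same direction at -0.37 (SE 0.084, adjusted p = 0.331). It was listed with type A but marks intercalated cells more widely, and of the 4 others 3 were lower and 2 past an unadjusted p of 0.05. Groups separated in that direction held for 2.17% of all genes.

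Adgrf5, an adhesion receptor of type A cells that endothelium also makes, was at -0.22 (SE 0.067, adjusted p = 0.331). Dmrt2, a type A transcription factor in mice, was at -0.042, and the potassium-chloride cotransporter Slc12a7 at 0.11. Aqp6 was at -0.35, Kit at -0.33 and Adgrf5 at -0.19 without HSRA-C replicates 3 and 4, where 3 of the 5 were lower. In that fit 2 of the 5 were lower and 0 higher at an unadjusted p under 0.05, against 2.17% of all genes lower. Of 4 type B markers 3 were lower and 0 were past an unadjusted p of 0.05, at a median of -0.079. Hmx2, a homeobox factor of type B cells in mice, was at -0.16, the alkali-sensing receptor Insrr at -0.061, the bicarbonate transporter Slc4a8 at -0.096 and the oxoglutarate receptor Oxgr1 at 0.021. The difference between the type A and type B lists was not tested.

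HSRA-S replicate 1 stood out among the solitary kidneys. It held the highest HSRA-S value in 7 of the 10 members, and HSRA-S replicates 2 and 4 held the lowest in 4 members each. The share of all genes that were highest in HSRA-S replicate 1 was not counted. Its array also had the highest median intensity, 32.3, against 30.8 to 31.3 in the other HSRA-S arrays. Insrr was at 7.03, 6.74, 6.75 and 6.72 in HSRA-S replicates 1 to 4, and at 7.03, 6.95, 6.83 and 6.68 in HSRA-C replicates 1 to 4. Oxgr1 was at 8.79 in HSRA-S replicate 1, above the other 7 kidneys. The spread of the members was wider among the solitary kidneys. The SD was larger in HSRA-S than in HSRA-C for 8 of the 10 members, at a median ratio of 2.21, against 52.6% of all genes at a median ratio of 1.05.

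The channels Rhbg, at the basolateral membrane, and Rhcg, at the luminal and basolateral membranes, pass ammonia in intercalated and principal cells. Rhbg was at 7.84, 7.42, 7.62 and 7.52 in HSRA-S replicates 1 to 4, and at 7.80, 7.85, 7.78 and 7.67 in HSRA-C replicates 1 to 4. Its difference was -0.18, from -0.38 to 0.024, with an adjusted p of 0.456 in limma. Rhcg was at 9.97, 9.80, 9.79 and 9.70 in HSRA-S replicates 1 to 4, and at 9.99, 9.99, 9.97 and 9.87 in HSRA-C replicates 1 to 4. Its difference was -0.14, from -0.30 to 0.015, with an adjusted p of 0.449 in limma. For both genes HSRA-S replicate 1 lay among the controls and the other 3 HSRA-S kidneys below them. The differences were -0.23 for Rhbg and -0.18 for Rhcg without HSRA-C replicates 3 and 4.

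The proton pump of intercalated cells is built with kidney-type isoforms of some subunits, while other subunits are shared with all cells. Atp6v1b1, the kidney-type B subunit of the sector that splits ATP, was at 8.76, 8.60, 8.49 and 8.48 in HSRA-S replicates 1 to 4. It was at 8.60, 8.75, 8.71 and 8.68 in HSRA-C replicates 1 to 4. HSRA-S replicate 1 was just above the highest control and the other 3 HSRA-S kidneys lay below the lowest, replicate 2 by a narrow margin, with a difference of -0.10, from -0.27 to 0.063. It was -0.16 without HSRA-S replicate 1 and -0.044 with the principal cell covariate.

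Atp6v0a4, the kidney-type subunit of the membrane sector, was at 10.62, 10.49, 10.56 and 10.71 in HSRA-S replicates 1 to 4 and at 10.68, 10.72, 10.58 and 10.41 in HSRA-C replicates 1 to 4. The groups covered the same range, with a difference of -0.0037, from -0.19 to 0.18. It was -0.10 without HSRA-C replicates 3 and 4 and -0.11 with the principal cell covariate. Atp6v1g3, the kidney-type G subunit, was at 5.93, 5.82, 5.82 and 5.87 in HSRA-S replicates 1 to 4 and at 5.78, 5.87, 5.93 and 5.81 in HSRA-C replicates 1 to 4. Its groups also covered one range, with a difference of 0.011, from -0.12 to 0.15.

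The other subunits and partners of the pump were mostly higher in HSRA-S. Of 18 tested, 14 were higher and 4 lower, where 55.5% of all genes were higher. Their median was 0.050, against 0.015 over all tested genes. At an unadjusted p under 0.05 there were 6 higher and 0 lower, where 7.36% of all genes were higher, and 0 passed at an adjusted p. The regulatory subunit Atp6v1c1 was at 8.35, 8.38, 8.31 and 8.48 in HSRA-S replicates 1 to 4 and at 8.13, 8.16, 8.04 and 8.04 in HSRA-C replicates 1 to 4. Its groups did not overlap, with a difference of 0.29 (SE 0.063, adjusted p = 0.331). The catalytic subunit Atp6v1a was at 0.23 (SE 0.065, adjusted p = 0.331) and the B subunit Atp6v1b2 at 0.34 (SE 0.11, adjusted p = 0.341). Groups separated in that direction held for 4 of the 18, against 4.12% of all genes.

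These subunits also serve the proximal tubule, and most of its markers were higher too. Of 9 markers of the proximal tubule 8 had the higher level in HSRA-S, at a median of 0.17, where 55.5% of all genes were higher. At an unadjusted p under 0.05, 3 were higher and 0 lower, where 7.36% of all genes were higher, and 0 passed at an adjusted p. In 3 of the 9 the groups did not overlap, higher in HSRA-S, against 4.12% of all genes. The largest differences were 0.75 for Slc2a2, 0.69 for Slc7a7 and 0.48 for Slc6a19, while Lrp2 was at 0.053, Cubn at 0.023 and Slc34a1 at -0.036. Without HSRA-C replicates 3 and 4, 6 of the 9 were higher, at a median of 0.14, and Lrp2, Cubn and Slc34a1 were below 0. There Slc2a2 was at 0.56, Slc7a7 at 0.38 and Slc6a19 at 0.33. At an unadjusted p under 0.05, 1 of the 9 was higher in that fit, where 2.68% of all genes were. With all arrays the mean of the 9 markers, each gene relative to its own mean, was 0.14, 0.030, -0.041 and 0.42 in HSRA-S replicates 1 to 4. It was -0.027, -0.035, -0.24 and -0.25 in HSRA-C replicates 1 to 4. The part of the proximal tubule in the values of the pump subunits was not tested. The differences were 0.23 for Atp6v1c1, 0.16 for Atp6v1a and 0.19 for Atp6v1b2 without HSRA-C replicates 3 and 4, where 14 of the 18 were higher. In that fit 1 of the 18 was higher and 0 lower at an unadjusted p under 0.05, against 2.68% of all genes higher.

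**Figure D3:**
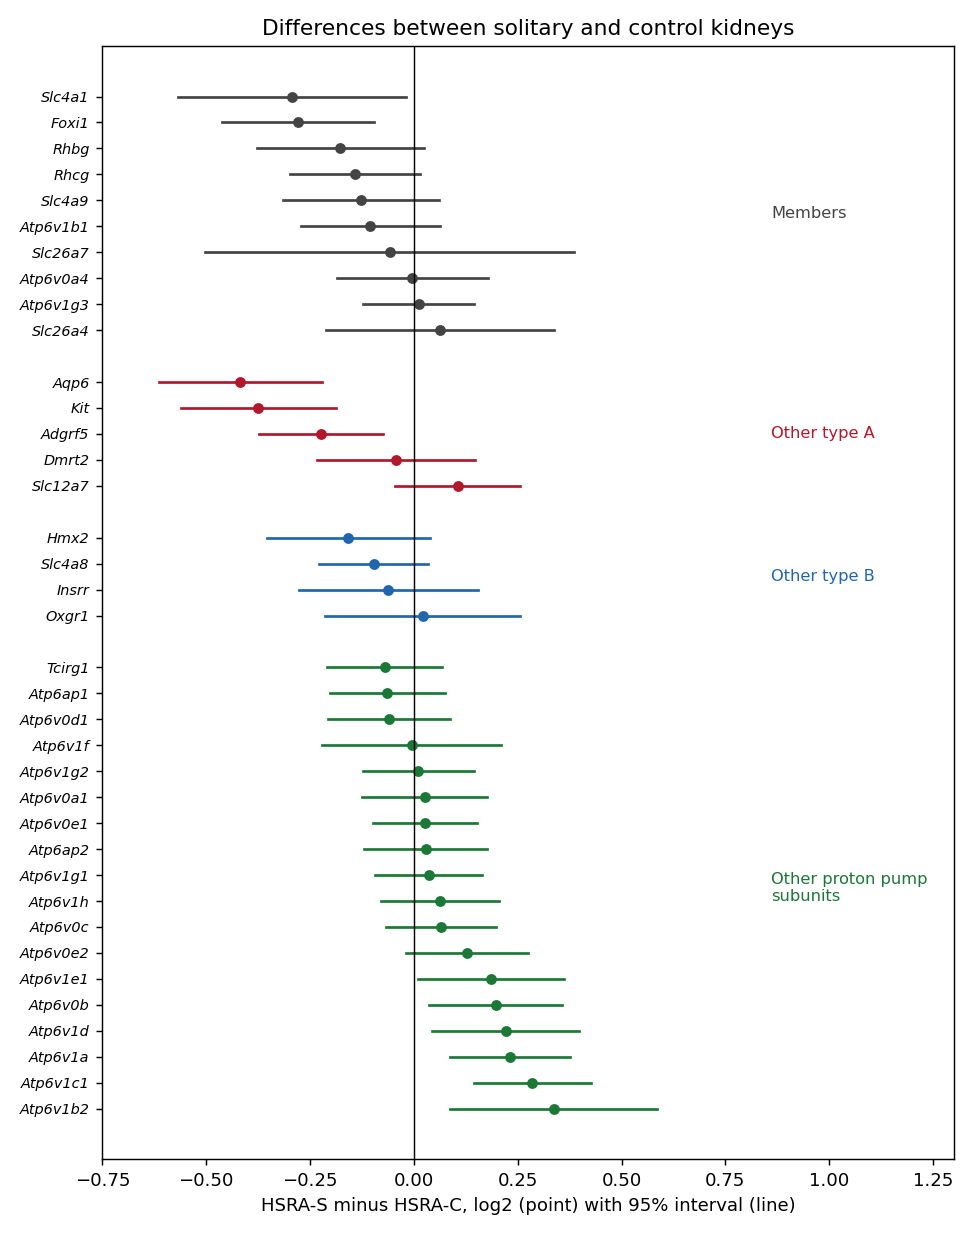
Log2 difference, HSRA-S minus HSRA-C, with its 95% interval for the 10 members, other type A and type B markers and the other proton pump subunits, ordered by size within each block. Members and type A markers lie mostly left of 0, with Slc4a1 at -0.29 and Aqp6 at -0.42, and 14 of the 18 other pump subunits lie right of 0, up to 0.34 for Atp6v1b2.

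Kidney-type isoforms were then compared with the widely expressed isoform of the same subunit within each array. For the B subunit, Atp6v1b1 minus Atp6v1b2, relative to its mean over the arrays, was -0.0054, -0.16, -0.23 and -0.49 in HSRA-S replicates 1 to 4. It was 0.17, -0.041, 0.44 and 0.32 in HSRA-C replicates 1 to 4. The groups overlapped through HSRA-C replicate 2, and the difference was -0.44. It lay between -0.53 and -0.35 with single kidneys left out and was -0.29 without HSRA-C replicates 3 and 4. No p is given for these pairs, because they were chosen after values of these genes were known. The 3 other pairs had differences of -0.029 for Atp6v0a4 minus Atp6v0a1, -0.024 for Atp6v1g3 minus Atp6v1g1 and -0.0042 for Atp6v0d2 minus Atp6v0d1.

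**Figure D4:**
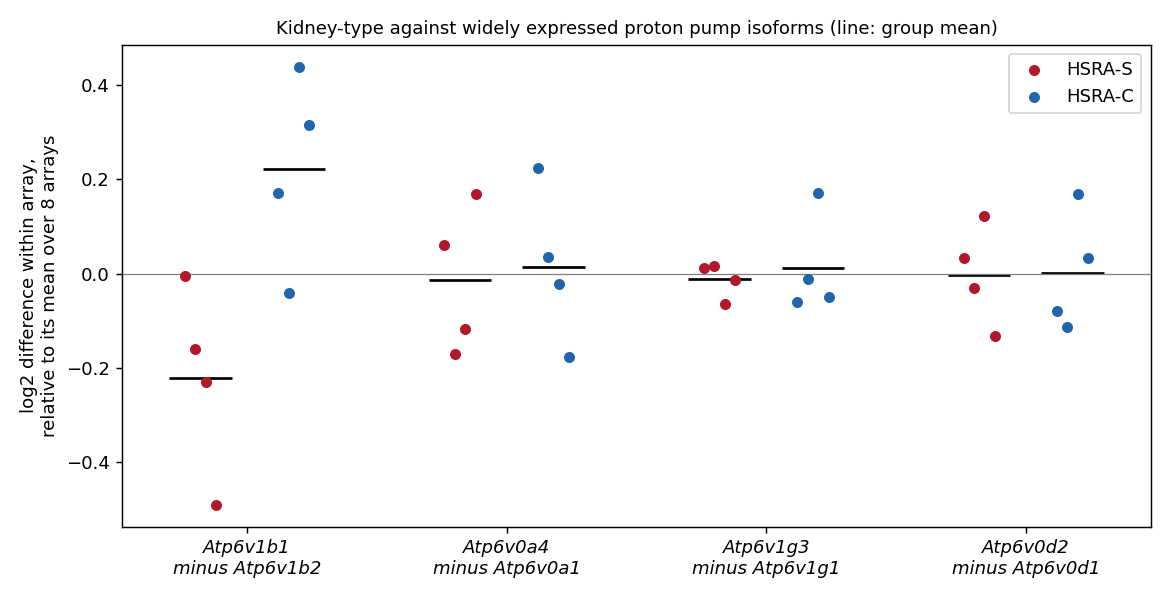
Within-array log2 difference between kidney-type and widely expressed proton pump isoforms, relative to its mean over the 8 arrays; points are arrays, HSRA-S in red left of HSRA-C in blue, and lines are group means. The B subunit pair is lower in HSRA-S (mean -0.22 against 0.22 in HSRA-C) with overlap of 1 control, and the other 3 pairs are centred near 0 in both groups.

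Other bicarbonate and acid transporters of the kidney were counted as well. Of 14 tested, 10 were higher in HSRA-S and 4 lower, where 55.5% of all genes were higher, at a median of 0.13. At an unadjusted p under 0.05, 3 were higher and 0 lower, where 7.36% of all genes were higher. At an adjusted p 0 passed. The sodium-bicarbonate cotransporter Slc4a4, the main base exit of the proximal tubule, was at 0.38 (SE 0.13, adjusted p = 0.358), and at 0.16 without HSRA-C replicates 3 and 4. The anion exchanger Slc26a6 was at 0.20 (SE 0.057, adjusted p = 0.331), and without overlap between groups. Groups separated in that direction held for 1 of the 14, against 4.12% of all genes. The sodium-proton exchanger Slc9a2 was at 0.22 (SE 0.094, adjusted p = 0.404). With HSRA-C replicates 3 and 4 left out, 10 of the 14 were higher at a median of 0.038. In that fit 1 of the 14 was higher and 0 lower at an unadjusted p under 0.05, against 2.68% of all genes higher.

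Of 5 other markers of intercalated cells 3 were lower and 2 higher, with 0 past an unadjusted p of 0.05 and a median of -0.059. Car2, the cytosolic carbonic anhydrase that supplies protons and bicarbonate, was at 9.49, 9.32, 9.36 and 9.36 in HSRA-S replicates 1 to 4 and at 9.39, 9.49, 9.23 and 9.21 in HSRA-C replicates 1 to 4, a difference of 0.049 in overlapping groups. Car12, the membrane-bound carbonic anhydrase, was at 0.058, Hepacam2, an adhesion protein of intercalated cells, at -0.089, and the chloride channel subunit Bsnd at -0.21 (SE 0.17). With HSRA-C replicates 3 and 4 left out, 4 of the 5 were lower, and the signs turned for Bsnd (0.11), Car2 (-0.059) and Car12 (-0.011). Atp6v0d2, a kidney-type pump subunit that is no member, was at -0.064 from -0.22 to 0.095, and Atp6v1c2 was not analysed here.

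Principal cells share the collecting duct with intercalated cells. All 10 tested principal cell genes were lower in HSRA-S, at a median of -0.13, where 44.5% of all genes were lower. At an unadjusted p under 0.05, 1 was lower and 0 higher, where 4.69% of all genes were lower. It was Aqp2, at -0.38 (SE 0.15, adjusted p = 0.373), and at -0.12 without HSRA-C replicates 3 and 4. For principal cell genes without those 2 arrays the median was -0.058, with 8 of 10 lower and 0 past an unadjusted p of 0.05. That of the intercalated cell members was -0.13 there, with 7 of 10 lower. The difference between these cell types was not tested. Of 6 thick limb and distal tubule genes 3 were higher and 3 lower (median 0.014). At an unadjusted p under 0.05, 2 of them were higher (Calb1 at 0.44, Trpm6 at 0.34) and 0 lower, where 7.36% of all genes were higher. All 3 podocyte genes were lower (median -0.14), with 0 past an unadjusted p of 0.05. Genes of organs beside the kidney were dim: the adrenal enzyme Cyp11b1 averaged 5.0005 in HSRA-S kidneys against 5.26 in controls, and the fat cell hormone Adipoq averaged 4.95 in HSRA-S kidneys against 4.91 in controls. Both tested adrenal genes were lower and all 3 fat genes higher in HSRA-S, at medians of -0.16 and 0.044, and 1 of 2 lower and 2 of 3 higher without HSRA-C replicates 3 and 4. Cyp11b1 was past an unadjusted p of 0.05 (0.00815, adjusted 0.331, in limma), and 0 fat genes were past that p. The groups did not overlap for Cyp11b1, lower in HSRA-S, and for the fat gene Plin1, higher at 0.15. Of all genes 2.17% were separated lower and 4.12% higher.

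To see which genes ran most like the members from kidney to kidney, group means were removed from each gene and the scaled members were averaged. That average was highest in HSRA-S replicate 1 and lowest in HSRA-S replicate 2. The genes most like it over the 8 arrays, outside the members and among genes brighter than the median, were Arfrp1, Ccdc174, Gak, Cpsf1, Skic3, Pafah1b2, Eif3e and Rad21, with likeness measures (Pearson r) of 0.953 to 0.988. They are the top of 6877 genes over few arrays that were normalised together, so the measure describes rank alone. Their differences between groups lay between 0.0053 and 0.12. Over the 25 other collecting duct genes followed the likeness ran from -0.711 for Nr3c2, the mineralocorticoid receptor, to 0.936 for Hsd11b2, the enzyme that inactivates corticosterone in principal cells, at a median of 0.370, with 4 below 0. Aqp6 was at 0.030 and Kit at -0.445.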

How the data were processed

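Kidney RNA of 8 rats was hybridised to Affymetrix Rat Gene 1.1 ST arrays, 1 array per sample, per the labels' protocols. The values the authors deposited are intensities on a linear scale, made with RMA per the submitters' processing notes (no version is given). RMA equalises the arrays and compresses dim genes, so small differences tend to be understated. The design had assumed log2 values, so the log2 of each deposited intensity was taken here. Of 29214 probe sets, 18644 carried 1 gene symbol, 962 several and 9608 none in the platform annotation. Of the first kind 18460 matched RefSeq (GRCr8) by gene ID. The brightest probe set stood for each of 17245 genes, and the dimmest 20% (3449 genes) were left out. All 10 members were kept.

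Differences between HSRA-S and HSRA-C kidneys were fitted with limma 3.58.1 in R 4.3.3 (lmFit, eBayes), with Benjamini-Hochberg adjustment over 13796 genes. The labels call the samples biological replicates. P-values set each group difference against the spread between these samples, with each gene's variance drawn toward that of all genes by eBayes. The number of arrays limits the precision. The steps were tested on simulated data. Alternatives covered the dim-gene filter, gene summary, variance model, normalization, array weights, replicate block, covariates and left-out arrays. Members and lists were chosen with earlier results of these data known. All members are named. Of the lists, up to 3 genes of smallest p and some set in advance are named. Lrp2, Cubn, Slc34a1 and Umod were named beside them as markers. Likeness used the 8 brightest-half genes of highest Pearson r.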

Additional observations from a re-analysis of the deposited data

Results flagged for a closer look

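In groups of 4 kidneys, a value was singled out where its gap to the nearest other, divided by the group's range, exceeded Dixon's critical value of 0.829. Of 120 groups checked 10 were singled out, and chance gives about 5% of groups. Among the members, Slc4a1 was at 8.75 in HSRA-S replicate 3, with the nearest HSRA-S kidney at 8.23. Slc26a4 was at 8.12 in HSRA-S replicate 1 (nearest 7.60), and Slc26a7 at 5.07 in HSRA-S replicate 4 (nearest 5.95).

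Among the other genes, the type B marker Insrr was at 7.03 in HSRA-S replicate 1 (nearest 6.75). The medullary genes Slc14a2 and Slc5a3, an inositol transporter, were at 4.44 and 6.79 in HSRA-S replicate 4 (nearest 6.85 and 8.21). HSRA-C replicate 1 had Aqp6 at 9.78 (nearest 10.001) and Slc9a2 at 5.80 (nearest 5.52). HSRA-C replicate 3 had Cyp11b1 at 5.41 (nearest 5.22) and Adipoq at 5.25 (nearest 4.82).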

How the results depend on the processing

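The 10 member differences were recomputed under 22 alternatives, 1 of them (the red cell covariate) not planned in advance. The planned ones were not all blind to these data. Leaving out HSRA-C replicates 3 and 4 followed from their inner medulla levels, and the covariate lists were chosen with earlier results known. Of 220 values 205 kept their direction and 15 changed it, and 0 passed adjustment (smallest adjusted p 0.141, Slc4a1 without HSRA-S replicate 3). Changes of direction concerned Slc26a7, Slc26a4, Atp6v0a4 and Atp6v1g3, and the cause was not tested. Slc26a7 was at 0.0155 with array weights, 0.0184 without HSRA-C replicates 3 and 4, 0.252 with the principal cell and 0.112 with the inner medulla covariate. Atp6v1g3 was at -0.000334 with arrays centred on their median and -0.0132 with array weights. Leaving out 1 kidney moved Slc26a7 between -0.145 and 0.174, Slc26a4 between -0.0727 and 0.125, Atp6v0a4 between -0.0658 and 0.0359 and Atp6v1g3 between -0.0127 and 0.0396. The members' median lay between -0.173 and -0.0872 there. For Aqp6, Kit, Adgrf5, Atp6v1c1, Atp6v1a, Atp6v1b2, Slc26a6, Slc4a4, Aqp2 and Slc9a2, 219 of 219 values kept their direction.

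Over all genes, 0 passed adjustment in the main setting. With the dimmest 50% left out, an intensity trend or array weights 1 passed each, Hoxb5. The unadjusted p was under 0.05 for 1663 genes, 2895 with all probe sets (more features tested) and 1002 with the red cell covariate. It was under 0.05 for 669 genes without HSRA-C replicates 3 and 4, and the cause of that drop was not tested. Leaving out 1 kidney gave 1010 to 1942 genes and 0 after adjustment. The count was 1010 without HSRA-C replicate 3, 1017 without replicate 4, 1942 without replicate 1 and 1915 without replicate 2. Of the isoform pairs, leaving out 1 kidney moved Atp6v1b1 minus Atp6v1b2 between -0.529 and -0.352, Atp6v0a4 minus Atp6v0a1 between -0.0933 and 0.0402, Atp6v1g3 minus Atp6v1g1 between -0.0482 and 0.0285 and Atp6v0d2 minus Atp6v0d1 between -0.0457 and 0.0509. Without HSRA-C replicates 3 and 4 the last 2 were at 0.0240 and 0.0936. The replicate numbers are shared by the groups, and the labels name no pairing of the samples. Correlations of same-numbered deviations were -0.0681, 0.0697, 0.129 and -0.110. They were not compared with those of differently numbered kidneys, so they cannot settle whether samples were paired. The replicate block gave 1586 genes at an unadjusted p under 0.05, 0 after adjustment, a members' median of -0.116 and no other call.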
